A study of Mus musculus with 12 samples.

Results

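The transcripts of wild-type (WT) mouse oocytes were compared between germinal vesicle breakdown (GVBD), the visible start of meiotic resumption, and metaphase II (MII), the stage of the second arrest. The comparison rests on 4 of the 12 libraries of the series, chosen by their labels: 2 of WT GVBD and 2 of WT MII. All mice were of C57BL/6 background. Fully grown germinal vesicle (GV) oocytes were taken from 3-week-old females primed with pregnant mare serum gonadotropin, freed of cumulus cells, held in milrinone and then released into culture. GVBD libraries were collected after 4 h and MII libraries after 16 h. Each library was a pool of oocytes without zona pellucida, to which a fixed amount of ERCC RNA, a set of synthetic RNAs, was added. Used for context only were 2 WT GV libraries (0 h) and libraries of *Alkbh5* knockout (KO) oocytes, which lack an RNA demethylase, labelled with the same stages. MII oocytes matured in culture here, without cumulus cells, and oocytes were grouped by time in culture, and whether each was checked for its stage is not given in the sources used here. The replicates are separate pools, so p-values measure the spread between pools. The KO line lacks the gene in all tissues.

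A fully grown oocyte is transcriptionally silent. It carries a store of maternal messenger RNA, and during maturation parts of that store are translated, kept or removed. Translation of many dormant messages is switched on by lengthening of the poly(A) tail, guided by cytoplasmic polyadenylation elements in the 3′ UTR, whereas removal of the tail by the CCR4-NOT complex, recruited by BTG4 and other adaptors, starts decay. Since nearly no new RNA is made, levels are usually read as decay or stability. In libraries primed with oligo(dT), however, a change in RNA amount and a change in tail length cannot be told apart, and neither can fewer oocytes in a tube and less RNA per oocyte.

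The element TTTTAT was searched on the transcript strand in the last 150 bases of the 3′ UTR of a representative GENCODE M21 transcript of each gene. Of the 12 most abundant transcripts whose interval lay above a loss of 50% (named below), 11 had a usable transcript and 7 of these held the element, and their windows are shown here. Of the 12 lowest by the naming rule 4 held it, and of the 12 lowest among genes also present in WT GV replicate 1, 0 of 11. Of the 12 highest, 2 of 11 held it. Among the 8776 coding genes described at the end, 20.3% did, and among all 20998 annotated coding transcripts 17.1%. Shorter 3′ UTRs were searched whole and had less room for the element, as for *Iqcf1* (17 bases) and *Fcf1* (86 bases) in the set of 0 of 11. The sets were chosen by their values and are small, so these counts are a description. Windows of 30 bases on GRCm38 are given 5′ to 3′ on the transcript strand, with the element in capitals, all inside annotated 3′ UTRs.
Btg4, plus strand, chr9:51119797-51119826: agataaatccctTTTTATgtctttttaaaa
H1foo, plus strand, chr6:115950157-115950186: cgattctgaagcTTTTATtgtctaataagc
Obox2, plus strand, chr7:15398478-15398507: taggtcttaattTTTTATtgttagagtata
Oosp3, plus strand, chr19:11711829-11711858: cacaacctataaataaaacaTTTTATtgta
Rfpl4, minus strand, chr7:5109910-5109939: gaatgctttcctTTTTATttgctataatat
Omt2a, minus strand, chr9:78312016-78312045: gggttttaacggTTTTATaataaataaaag
Omt2b, plus strand, chr9:78329555-78329584: gggttttaacggTTTTATaataaataaaag
The element was not particular to kept messages. *Ppp3cc*, a calcineurin subunit, and *Glrx2*, a glutaredoxin, were both called lower at MII and held it.
Ppp3cc, minus strand, chr14:70217913-70217942: gaaaaatgaccaTTTTATaaattcttctaa
Glrx2, plus strand, chr1:143749299-143749328: ttcttaagaatgTTTTATcagttcttccta
The windows of *Omt2a* and *Omt2b* were identical, and since only uniquely aligned reads were kept, the values of these paralogs are uncertain. *Obox2* overlaps its paralog *Obox1* in the annotation, with the same limit.

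The 4 libraries held 34172356 to 40247810 counts each, of which 301307 to 838409 fell on ERCC sequences. Levels below are spike-in scaled counts, that is, a library's count divided by its ERCC total relative to the geometric mean of the 12 libraries. All 16 oocyte markers had more than 3 counts in each library, with summed scaled counts of 826330 to 1165969 at GVBD and 754401 to 1142299 at MII. Of 22 granulosa and cumulus markers, 13 passed the filter on low counts and 2 of these were called lower, or 0 to 1 with a library left out. The 22 markers summed to 1859 to 2145 at GVBD and 949 to 1609 at MII. More than 3 counts were found for 13 and 17 of them in the GVBD libraries and for 14 and 13 in the MII libraries. *Foxl2*, *Amhr2* and *Wt1* were at 0 in all 4 libraries. Transcripts of blood behaved differently. The 13 blood and macrophage markers summed to 138998 and 84867 in the GVBD libraries but to 521 and 913 in the MII libraries, and 11 of 13 were called lower, or 7 without GVBD replicate 1. In WT GV they summed to 1153 in replicate 1 and to 208022 in replicate 2. Keratins such as *Krt14* and *Krt5* had counts in both GVBD libraries and 0 counts in both libraries of GV and of MII. The 12 muscle and keratinocyte markers, of which these are members, summed to 7629 and 6755 at GVBD and to 4694 and 1612 at MII. Of these markers 4 of 12 were called lower, at a median log2 change of −0.54. The 12 lowest by the naming rule were *Krt1*, *Krt5*, *Krt6b*, *Krt14*, *Krt16*, the platelet transcripts *Itga2b*, *Gp9*, *Pf4* and *Ppbp*, and *Nrgn*, *Apol11b* and *Zfp966*, so the named losses below are drawn from genes whose level in WT GV replicate 1 was at least 10% of the GVBD mean, a restriction set after the values were seen. The part of blood and skin RNA in other results was not tested.

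Less oocyte RNA was recovered per spike-in at MII. Endogenous counts per ERCC count were 112 and 75.3 at GVBD, with a mean of 93.9 ± 26.3 (SD, n = 2), and 73.3 and 47.0 at MII, with a mean of 60.1 ± 18.6. The lowest GVBD library was just above the highest MII library. The MII mean was 0.641 of the GVBD mean, and within replicate numbers the ratio was 0.652 and 0.624. In an exact two-sided permutation test p was 0.33, the smallest value that 2 against 2 libraries can give. In WT GV the level was 105 and 98.9. Replicate 1 was above replicate 2 in 6 of the 6 groups of the series.

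Transcript by transcript, the change was far from even. Of 19270 tested genes, 5392 were called lower at MII (28.0% of tested genes) and 121 were called higher (0.628%) by edgeR's quasi-likelihood test, with an adjusted p under 0.05 and at least a 2-fold change. The median log2 fold change was −1.13, so that the median gene was left with 45.7% of its GVBD level. Among the called losses, 475 were under 4-fold, 3423 were 4-fold to 16-fold and 1494 were larger. The genes called lower had made up 38.4% and 39.1% of endogenous counts at GVBD and made up 8.77% and 9.11% at MII. They were chosen by their fall in these same libraries, so a lower share follows from the choice. As many as 4881 genes were at least 2-fold lower without passing the test. Calls rested strongly on single libraries. Without GVBD replicate 1 the number called either way was 1847 in place of 5513, without GVBD replicate 2 it was 3380, and without MII replicate 2 it was 2697. Of 54 genes picked by the naming rules and called lower, 12 lost the call without GVBD replicate 1, namely *Anapc15*, *Cnot11*, *Gja4*, *Glrx*, *Khdc3*, *Mrps33*, *Paip2*, *Polr2g*, *Spc25*, *Uqcrh*, *Zp2* and *Zp3*, and *Uqcrh* lost it also without MII replicate 2. Of 22 so picked and called higher, 21 lost the call without GVBD replicate 1, all but *mt-Atp6*, 20 without GVBD replicate 2 and 17 without MII replicate 1. With TMM scaling, which sets the average gene to no change, the median was −0.17 and calls split into 3014 lower (15.7%) and 1902 higher (9.9%). Changes of gene groups are therefore set beside the median of all genes, and list counts without a library are given where they moved by more than 1.5 times.

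**Figure D1:**
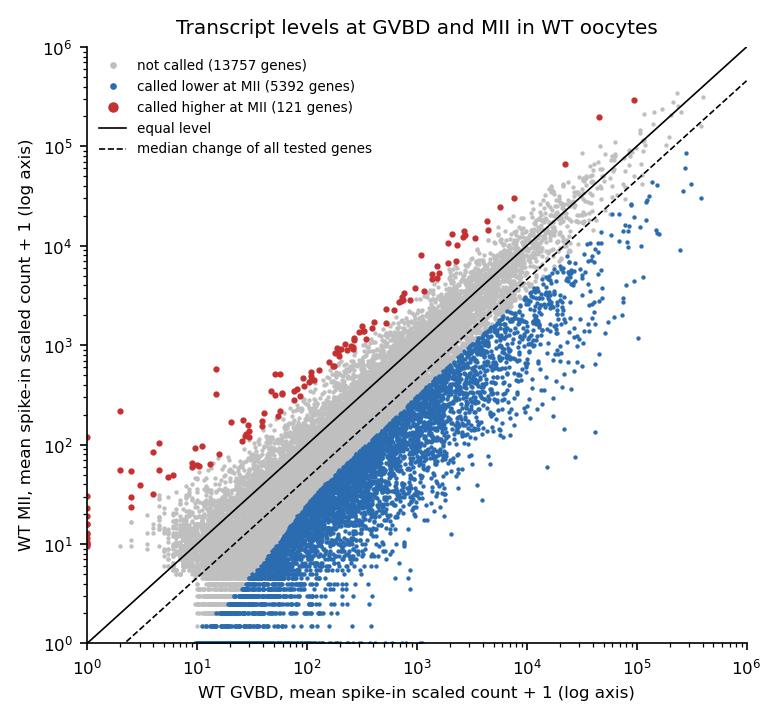
Mean spike-in scaled count plus 1 of each tested gene at WT GVBD (horizontal log axis) and WT MII (vertical log axis), each a mean of 2 libraries. Blue points are the 5392 genes called lower, red points the 121 called higher. The solid line marks equal levels and the dashed line the median change of −1.13 (log2).

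The deepest losses among genes also present in WT GV replicate 1 were of diverse function. *Fcf1*, a factor of small ribosomal subunit assembly (ENSMUSG00000021243, GRCm38 chromosome 12, 84970897 to 84983303, plus strand), had scaled counts of 142012 and 64157 at GVBD and 1269 and 1067 at MII. Its log2 fold change was −6.46 ± 0.74 (SE, adjusted p = 3.74e-15). *Dkk1*, a secreted inhibitor of Wnt signalling, went from 4037 and 3091 to 52 and 25 (−6.54 ± 0.83). The KRAB zinc finger gene *Zfp966* had 405 and 189 at GVBD and 0 counts in both MII libraries, and was at least 166-fold lower against a floor of 3 counts per library. The remaining members of the 12 were *AA645442*, *Tnnc2*, *Spata19*, *Mrpl33*, *Iqcf1*, *Ctla2a*, *Ebi3*, *Dglucy* and *Cyp2b13*, with log2 fold changes of −7.94 to −6.31. *Ctla2a* had 162 and 637 in the WT GV libraries, where the blood markers also differed. For all 12 both MII libraries were below both GVBD libraries, as the naming rule required and as held for 56.6% of tested genes. The annotated spans of 7 of the 12, *Fcf1* and *Mrpl33* among them, overlap another tested gene. Whether strand was used in counting is not given in the sources used here.

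Among the function lists, ribosomal proteins had the highest share called lower. Of 84 genes of cytosolic ribosomal proteins, the structural parts of the ribosome, 64 were called lower (76.2%, against 28.0% of all tested genes) and 1 was called higher. Their median log2 fold change was −2.74, which is 1.61 below the median of all genes, and with TMM scaling it was −1.80. *Rpl26* (chromosome 11, 68901583 to 68906989, plus strand) had 57821 and 33933 at GVBD and 876 and 757 at MII, a log2 change of −5.81 ± 0.74 (adjusted p = 1.77e-12). *Rpl5*, which joins 5S rRNA to the large subunit, went from 56136 and 41525 to 3413 and 2537 (−4.04 ± 0.67). *Rps27a*, which encodes a fusion of ubiquitin and a ribosomal protein, was lowest at −5.92 ± 0.76. In each of these the MII libraries lay far below the GVBD libraries. *Rpl41* was the exception among the members called. It had 3566 and 1954 at GVBD and 13987 and 11547 at MII (2.21 ± 0.65, adjusted p = 0.00422), and did not pass without either GVBD library. Leaving out 1 library left 33 to 61 members called lower, with 33 without GVBD replicate 1 and 38 without MII replicate 2.

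Other parts of translation were less uniform. Of 50 tested initiation factors, 18 were called lower (36.0%, against 28.0% of all tested genes) and 1 higher, with a median of −0.94 (0.01 with TMM scaling), and 5 were called lower without GVBD replicate 1 and 7 without MII replicate 2. *Eif3h*, a subunit of the factor that prepares the small ribosomal subunit, fell from 2968 and 1763 to 185 and 78 (−4.18 ± 0.75). *Eif2s2*, the beta subunit of the factor that brings the initiator tRNA, rose from 29539 and 15206 to 78819 and 55569 (1.59 ± 0.60, adjusted p = 0.0325), a call that was lost with any 1 of the 4 libraries left out (1.19 to 2.14). Of 34 tested aminoacyl-tRNA synthetases, which charge tRNAs, 12 were called lower (35.3%) and 0 higher, at a median of −1.70. Without GVBD replicate 1 or without MII replicate 2, 4 of them were.

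Messages for mitochondrial proteins separated by genome of origin. Of 77 mitochondrial ribosomal proteins, encoded in the nucleus, 50 were called lower (64.9%, against 28.0% of all tested genes) and 1 higher, at a median of −2.29. *Mrps33* had 110920 and 54247 at GVBD and 12540 and 9245 at MII (−2.92 ± 0.63), and *Mrpl33* had 23278 and 11177 against 202 and 183 (−6.48 ± 0.79). The member called higher was *Mrps5*, with 503 and 536 against 2768 and 1829 (2.15 ± 0.68), which like *Cox6b2* below did not pass without either GVBD library or without MII replicate 1. Of 82 tested nuclear subunits of oxidative phosphorylation, the respiratory chain and ATP synthase, 46 were called lower (56.1%) and 1 higher, at a median of −2.04. *Uqcrh*, of complex III, went from 90154 and 61715 to 17175 and 10699 (−2.45 ± 0.62), and *Ndufc1*, of complex I, from 1376 and 563 to 13 and 23 (−5.70 ± 0.86). *Cox7a2*, of complex IV, did not pass the test, at 90634 and 66573 against 67066 and 46412. *Cox6b2*, another subunit of complex IV, rose from 7174 and 7999 to 37831 and 23130 (2.01 ± 0.62, adjusted p = 0.00754). Of the 13 mRNAs encoded by mitochondrial DNA, 0 were called lower by edgeR or DESeq2 and 1 had an unadjusted p under 0.05, and their median was −0.06 (0.95 with TMM scaling, −0.43 to 0.57 with 1 library left out). *mt-Cytb* had 66929 and 30478 at GVBD and 71091 and 48037 at MII, and *mt-Co1* had 79742 and 40319 against 44043 and 35458. *mt-Atp6* was called higher on the strength of MII replicate 1 (24707, against 1730 in MII replicate 2 and 3100 and 1119 at GVBD), and its log2 change without that library was −0.29. It did not pass without GVBD replicate 2, with DESeq2 or with TMM scaling. It overlaps *mt-Atp8* on the same strand. With GVBD replicate 1 left out, 18 mitochondrial ribosomal and 19 respiratory genes were called lower, and without MII replicate 2, 27 and 26.

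Metabolic enzymes showed a similar mixture. Of 22 genes of glycolysis and pyruvate use, 10 were called lower (45.5%, against 28.0% of all tested genes) and 1 higher, at a median of −1.44. *Hk1*, a hexokinase, went from 198 and 176 to 15 and 6 (−4.15 ± 0.86). It had 39 and 134 in the WT GV libraries, where the blood markers also differed. *Ldhb*, a lactate dehydrogenase subunit, had the highest level of the list and rose from 110381 and 78098 to 352734 and 235680 (1.64 ± 0.57, adjusted p = 0.018), a call lost without either GVBD library or MII replicate 1 (1.32 to 1.91). Its level at WT GV was 354966 and 279509. Of 21 redox enzymes, 10 were called lower (47.6%) and 0 higher, at a median of −1.69, and *Glrx*, a glutaredoxin, had 59664 and 57678 against 15232 and 10464 (−2.19 ± 0.62), a call lost without either GVBD library or without MII replicate 2. Without MII replicate 2 these counts were 2 and 3, without GVBD replicate 1 they were 2 and 4, and without GVBD replicate 2 they were 6 and 4.

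Losses were uneven within the proteasome. Of 47 tested proteasome genes, 21 were called lower (44.7%, against 28.0% of all tested genes) and 0 higher, at a median of −1.50. *Psmb7*, a catalytic subunit, had 26798 and 26602 at GVBD and 677 and 412 at MII (−5.62 ± 0.74), whereas *Psma2*, a structural subunit of the same core particle, had 93271 and 75406 against 102153 and 65340. *Psmb3* had 6286 and 4700 against 15951 and 9444 and did not pass the test (1.21 ± 0.63, adjusted p = 0.138, or 0.0492 with DESeq2). Of 32 tested ubiquitin-conjugating (E2) enzymes, 11 were called lower (34.4%), among them *Ube2l6* with 716 and 416 against 18 and 6 (−5.57 ± 0.88), and with 13 and 933 in the WT GV libraries, where the blood markers also differed. Of 25 tested chaperones 7 were called lower (28.0%, the share of all tested genes). *Hspa1b* had the lowest change (−4.83 ± 0.97), with 176 and 64 at GVBD and 4 and 4 at MII. Its WT GV libraries held 15 and 34, so its level was highest at GVBD. *Hsp90aa1*, the most abundant, had 236993 and 192800 against 333061 and 222926. With GVBD replicate 1 left out, the counts called lower were 11 for the proteasome, 5 for E2 enzymes and 1 for chaperones, without MII replicate 2 they were 12, 6 and 1, and without GVBD replicate 2 chaperones had 3.

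**Figure D2:**
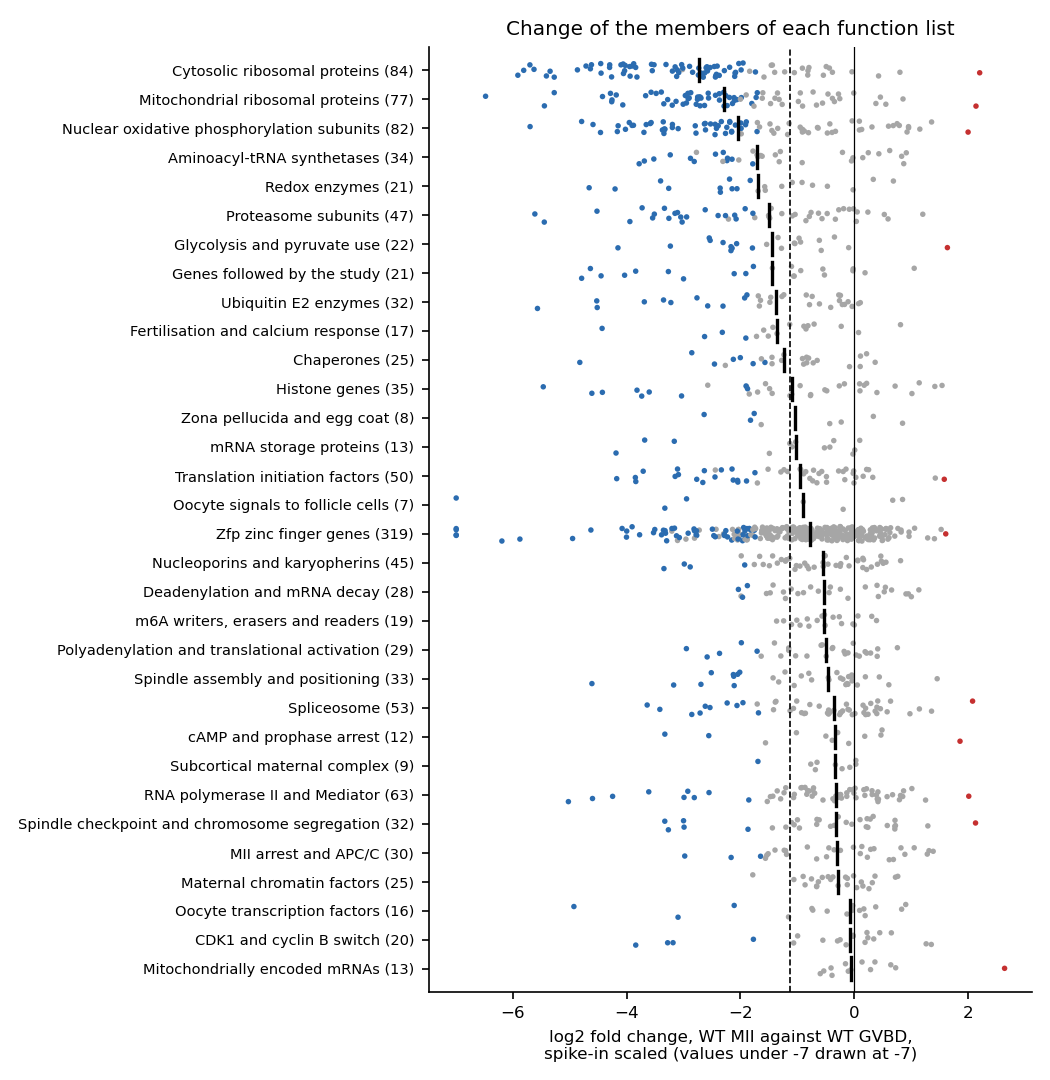
Log2 fold change of WT MII against WT GVBD (horizontal axis) for each tested member of the 32 function lists, with the number tested in parentheses. Blue points were called lower, red called higher and grey were not called. Short black bars are list medians, the dashed line is the median of all tested genes (−1.13) and the solid line no change, and values under −7 are drawn at −7. Cytosolic and mitochondrial ribosomal proteins lie lowest (medians −2.74 and −2.29) and mitochondrially encoded mRNAs highest (−0.06).

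Turning to what was kept, a transcript was counted as kept when the 95% interval of its log2 fold change lay wholly above −1. This held for 1639 genes (8.51% of tested genes). All of them had an estimate above 0 and a median of 0.75, and for 0 tested genes did the interval lie wholly between −1 and 1, since the median standard error was 0.76. Kept therefore means that a loss of 50% lay outside the interval, not that the level was shown to be constant. The kept genes made up on average 17.1% of endogenous counts at GVBD and 41.0% at MII. They were chosen by their change in these same libraries, so a rise in share follows from the choice. From GV to GVBD the kept genes had a median log2 change of −0.50, against 0.02 for all tested genes. The early and the late change use the same GVBD libraries, so a low value there enters both.

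The most abundant kept transcripts, per kilobase of exon at MII, included oocyte genes beside widely expressed ones such as *Ldhb* and *Hsp90aa1* and the mitochondrially encoded *mt-Atp8*. Highest was *Oosp1*, an oocyte-secreted protein (ENSMUSG00000041857, chromosome 19, 11667460 to 11691150, minus strand), with 112612 and 120111 at GVBD and 251690 and 168610 at MII, a log2 change of 0.85 ± 0.56 that did not pass the test. It was followed by *Ldhb*, *Obox2*, *Omt2b*, *Omt2a*, *Mphosph6*, *Oosp3*, *mt-Atp8*, *Rfpl4*, *H1foo*, *Hsp90aa1* and *Btg4*, whose estimates ranged from 0.10 to 1.64. *Btg4* (chromosome 9, 51060901 to 51119875, plus strand), the adaptor that brings deadenylases to mRNA, had 116867 and 99953 at GVBD and 173125 and 118443 at MII. *H1foo*, the oocyte linker histone, had 36932 and 27348 against 98311 and 73810 (1.42 ± 0.59, adjusted p = 0.0555). By edgeR's test with spike-in scaling *Ldhb* alone of the 12 was called higher, whereas *H1foo* also passed with DESeq2 (adjusted p = 0.0116) and with a replicate block (adjusted p = 0.002). The estimates of *Obox2*, *Rfpl4* and *mt-Atp8* turned negative without MII replicate 1 (−0.18, −0.01 and −0.12), as did those of *Obox2* and *mt-Atp8* without GVBD replicate 2 (−0.18 and −0.13). With TMM scaling all 12 were called higher, at log2 changes of 1.07 (*Obox2*) to 2.60 (*Ldhb*) relative to the average gene.

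**Figure D3:**
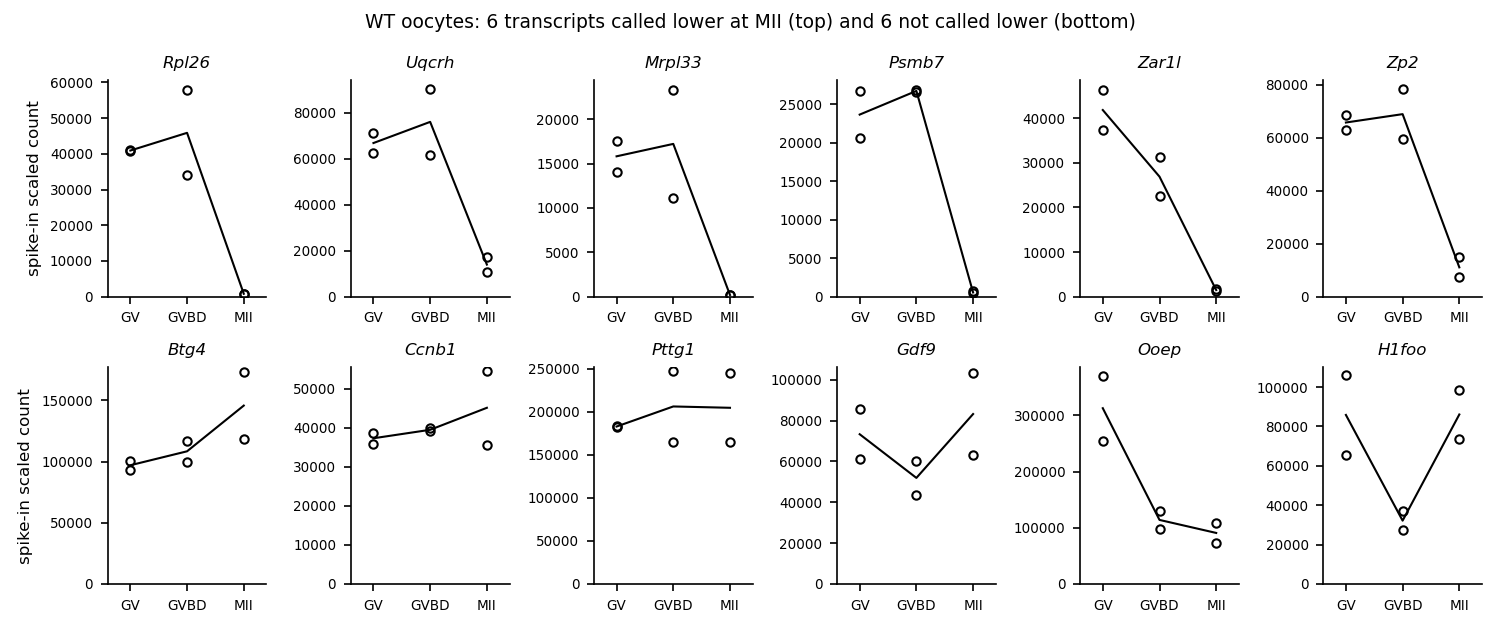
Spike-in scaled counts (vertical axes, from 0) of 12 transcripts in the 2 WT libraries of each stage (circles) with stage means joined by lines. In the top row, all called lower at MII, *Rpl26*, *Mrpl33*, *Psmb7* and *Zar1l* end near 0. In the bottom row, not called lower, *Ooep* is highest at GV, *H1foo* is lowest at GVBD, and the MII libraries of *Ccnb1*, *Pttg1* and *Ooep* overlap those of GVBD.

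Messages of the cell-cycle switch and of MII arrest came next. Of 20 tested genes of the CDK1 and cyclin B switch, 4 were called lower (20%, against 28.0% of all tested genes) and 0 higher, at a median of −0.08, which is 1.05 above that of all genes (0.85 with TMM scaling, −0.55 to 0.19 with 1 library left out). *Ccnb1*, cyclin B1, had 39123 and 39825 at GVBD and 54550 and 35671 at MII. *Wee2*, the oocyte kinase that restrains CDK1, had 23739 and 18798 against 22908 and 12979, and *Cks1b*, a CDK1 partner, had 5695 and 3224 against 13136 and 9737 (1.36 ± 0.63, adjusted p = 0.0912, or 0.0261 with DESeq2). These groups overlapped for *Ccnb1* and *Wee2* but not for *Cks1b*. *Ccnh*, the cyclin of the CDK-activating kinase, went from 1444 and 1219 to 111 and 75 (−3.84 ± 0.76). Of 30 genes of MII arrest and the anaphase-promoting complex, 3 were called lower (10%), at a median of −0.30 (0.62 with TMM scaling, −0.50 to 0.10 with 1 library left out). *Pttg1*, securin, had 247597 and 164779 against 244651 and 164635. *Mos*, the kinase upstream of the MAP kinase cascade that holds MII arrest, had 2878 and 4246 against 10859 and 7838 (1.39 ± 0.63, adjusted p = 0.0846, or 0.0174 with DESeq2). *Anapc15*, a subunit of the anaphase-promoting complex, went from 7766 and 5903 to 904 and 830 (−2.98 ± 0.68). The switch had 1 gene called lower and the arrest list 0 without GVBD replicate 1, and without GVBD replicate 2 or MII replicate 2, 1 of the arrest list.

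Within the chromosome segregation lists some genes were called lower and most were not called. Of 32 tested genes of the spindle checkpoint and segregation, 5 were called lower (15.6%, against 28.0% of all tested genes) and 1 higher, at a median of −0.31 (0.70 with TMM scaling, −0.54 to 0.23 with 1 library left out). *Spc25*, a kinetochore subunit, went from 5786 and 2474 to 460 and 361 (−3.33 ± 0.70). *Mad2l1bp*, which removes the checkpoint protein MAD2 from its partners, rose from 697 and 824 to 4037 and 2650 (2.14 ± 0.67, adjusted p = 0.00812), but did not pass without either GVBD library or without MII replicate 1. *Mad2l1*, MAD2 itself, had 14258 and 7969 against 32025 and 22611 and did not pass the test (adjusted p = 0.0974, or 0.0362 with DESeq2). *Aurkc*, a meiotic Aurora kinase, did not pass with either, at 14327 and 18446 against 29747 and 19372. Of 33 genes of spindle assembly and positioning, 9 were called lower (27.3%), at a median of −0.45 (0.44 with TMM scaling). The beta-tubulin gene *Tubb4b* had the lowest change, from 26214 and 8743 to 929 and 501 (−4.61 ± 0.72). *Myo10*, a motor, had the highest, from 768 and 436 to 2088 and 1229 (1.46 ± 0.67, adjusted p = 0.0879, or 0.0267 with DESeq2). Without GVBD replicate 1 or without MII replicate 2, 1 spindle assembly gene was called lower, and 4 without GVBD replicate 2. Checkpoint genes called lower numbered 1 without GVBD replicate 1 and 2 without MII replicate 2.

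The apparatus that reads and destroys maternal mRNA was listed in 4 groups. Of 28 genes of deadenylation and decay, 3 were called lower (10.7%, against 28.0% of all tested genes), at a median of −0.53 (0.45 with TMM scaling, −1.07 to 0.08 with 1 library left out), and the count was 0 without either GVBD library or without MII replicate 2. *Cnot7*, a catalytic deadenylase, had 32802 and 22687 against 30256 and 21263. *Dcp1a*, a decapping cofactor, had 3119 and 2752 against 8314 and 4619 (1.14 ± 0.64, adjusted p = 0.173), and *Cnot11*, a CCR4-NOT subunit, went from 5351 and 1930 to 1016 and 761 (−2.04 ± 0.67). The *Cnot11* call was lost with any 1 library left out (−1.12 without GVBD replicate 1) and with TMM scaling (−0.97). Of 29 tested genes of polyadenylation and translational activation, 5 were called lower (17.2%), at a median of −0.49 (0.51 with TMM scaling). *Dazl*, a translational activator of meiotic messages, had 11227 and 7464 against 14936 and 9855, and *Paip2*, an inhibitor of poly(A)-binding protein, fell from 12753 and 6286 to 1289 and 1175 (−2.95 ± 0.67). The list had 0, 3 or 1 called lower without GVBD replicate 1, GVBD replicate 2 or MII replicate 2. Of 19 tested writers, erasers and readers of m6A, 0 were called in either direction by edgeR, 1 had an unadjusted p under 0.05 and DESeq2 called 1, at a median of −0.52 (0.46 with TMM scaling, −1.05 to 0.12 with 1 library left out). *Alkbh5* had 12736 and 4489 against 5212 and 2817, and *Ythdf2*, a reader linked to decay, had 5050 and 2011 against 1598 and 1147. Of 13 proteins of mRNA storage, 3 were called lower (23.1%). Of these *Zar1l* went from 31179 and 22563 to 1758 and 1191 (−4.19 ± 0.69, adjusted p = 1.03e-07), while its paralog *Zar1* had 15443 and 10539 against 7515 and 4695 and did not pass the test.

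Products of the oocyte surface and its signals diverged. Of 8 tested genes of the zona pellucida and egg coat, 3 were called lower (37.5%, against 28.0% of all tested genes) and 0 higher. *Zp2*, a zona glycoprotein, went from 78244 and 59566 to 14854 and 7280 (−2.64 ± 0.62, adjusted p = 0.000311) and *Zp3*, another zona glycoprotein, from 22168 and 19159 to 7521 and 4169 (−1.82 ± 0.63). The list had 0 called lower without GVBD replicate 1, and without GVBD replicate 2 or MII replicate 2, 1 was. *Zp3* did not pass without any of these 3 libraries. Of 7 signals from oocyte to follicle cells, 3 were called lower (42.9%). *Fgf8*, a growth factor for cumulus cells, had 105 and 102 at GVBD and 0 counts in both MII libraries, at least 58.0-fold lower. *Gja4*, the gap junction protein connexin 37, went from 2139 and 725 to 160 and 125 (−3.33 ± 0.74). *Gdf9* and *Bmp15*, growth factors of the oocyte, did not pass the test, with 43612 and 60213 against 103119 and 63250 for *Gdf9* and 46519 and 40575 against 49174 and 27082 for *Bmp15*. Of the signals, 1 was called lower without GVBD replicate 1. Of 17 tested genes of fertilisation and the calcium response, 4 were called lower (23.5%), at a median of −1.36. *Ppp3cc* had 442 and 207 against 11 and 18 (−4.43 ± 0.84), whereas *Itpr2*, a calcium release channel, had 11875 and 10264 against 23818 and 15181. Only 1 gene of this list was called lower without GVBD replicate 1, GVBD replicate 2 or MII replicate 2. Of 12 tested genes of cAMP and prophase arrest, 2 were called lower (16.7%) and 1, *Akap1*, higher, with 342 and 181 against 1584 and 317 (1.86 ± 0.71). The groups of *Akap1* overlap, and its change was 0.28 without MII replicate 1 (adjusted p = 0.829) and did not pass without either GVBD library. Without either GVBD library 1 of these was called lower.

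Maternal-effect genes had few calls. Of 25 maternal chromatin factors, 0 were called by edgeR or DESeq2 and 0 had an unadjusted p under 0.05, at a median of −0.28 (0.70 with TMM scaling, −0.69 to 0.32 with 1 library left out), where 28.0% of all tested genes were called lower. *Dppa3*, which protects the maternal genome from demethylation, had 552113 and 252305 at GVBD and 366149 and 255492 at MII. *Npm2*, a histone chaperone, had 72327 and 99788 against 83414 and 46047, and *Uhrf1*, the partner of DNMT1, had 2811 and 3671 against 7264 and 3783. Of 9 members of the subcortical maternal complex, a structure needed for cleavage, 1 was called lower (11.1%), at a median of −0.33 (0.62 with TMM scaling). This was *Khdc3*, with 17709 and 5728 against 6236 and 1025 (−1.69 ± 0.64), with overlapping groups, and it did not pass without GVBD replicate 1, GVBD replicate 2 or MII replicate 2. *Ooep* had 129793 and 98159 against 108184 and 73378 and *Nlrp4f* had 55105 and 42706 against 63680 and 36250. Of 16 tested oocyte transcription factors, 3 were called lower (18.8%), at a median of −0.08 (0.89 with TMM scaling, −0.41 to 0.13 with 1 library left out). *Figla*, which activates the zona genes, went from 1300 and 981 to 48 and 27 (−4.93 ± 0.81), while *Obox1* had 134737 and 100561 against 129733 and 101908. Of these factors 1 was called lower without GVBD replicate 1, and 2 without any other single library.

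Nuclear machinery divided by subunit. Of 63 tested genes of RNA polymerase II and Mediator, 9 were called lower (14.3%, against 28.0% of all tested genes) and 1 higher, at a median of −0.32 (0.61 with TMM scaling). *Polr2k* had 68761 and 42003 against 1884 and 1515 (−5.03 ± 0.70) and *Polr2g* 102766 and 63954 against 15839 and 12596 (−2.55 ± 0.62), both polymerase subunits. *Med31*, of Mediator, rose from 4650 and 4074 to 21003 and 14325 (2.02 ± 0.64, adjusted p = 0.00847), but did not pass without either GVBD library or without MII replicate 1. Of 53 tested spliceosome genes, 10 were called lower (18.9%) and 1, *Sf3a2*, higher, at only 9 and 40 against 156 and 58. The *Sf3a2* call was lost with DESeq2 (adjusted p = 0.0906), TMM scaling (0.0717), a replicate block (0.123) and without GVBD replicate 1 or MII replicate 1 (1.39 and 1.20 on the log2 scale). *Snrpc*, of the U1 particle, went from 1355 and 1457 to 154 and 72 (−3.64 ± 0.75), and *Snrpb2*, of the U2 particle, had 44775 and 25011 against 56483 and 39728. Of 45 nucleoporins and karyopherins 4 were called lower (8.89%), and of 35 tested histone genes 9 (25.7%). Zinc finger genes named Zfp numbered 319 after the filter, with 52 lower (16.3%), a median of −0.78 (0.15 with TMM scaling) and 1 higher, *Zfp750*, whose call was lost with any 1 library left out. With GVBD replicate 1 left out, the counts called lower were 4 for polymerase and Mediator, 2 for the spliceosome, 1 for nucleoporins, 3 for histones and 8 for Zfp genes. Without GVBD replicate 2 nucleoporins had 2, histones 4 and Zfp genes 21, and without MII replicate 2 the spliceosome had 3, nucleoporins 2, Zfp genes 17 and polymerase and Mediator 6.

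Genes named in the study's own follow-up were also listed. Of 21 tested, 10 were called lower (47.6%, against 28.0% of all tested genes) and 0 higher. Since that list was drawn up from these samples, it is not independent evidence of a direction. *Birc5*, survivin, had 28629 and 20133 against 10137 and 7867 and did not pass edgeR's test (−1.44 ± 0.62, adjusted p = 0.0645). It passed with DESeq2 (adjusted p = 0.0112). *Cdc20*, the activator of the anaphase-promoting complex, had 1212 and 789 against 2449 and 1718. In the list, 6 were called lower without GVBD replicate 1 or MII replicate 2.

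Few transcripts were higher at MII. The 12 with the largest rise by the naming rule were *Serf2*, *Cpne1*, *Dnm1l*, *Trav9n-2*, *Pias4*, *Gps2*, *Grm2*, *Ctbp2*, *Rpl41*, *Btd*, *Eras* and *Tlr9*, with log2 fold changes of 2.15 to 2.49. These calls rested on single libraries. Without GVBD replicate 1 none of the 12 passed (12 calls lost), without GVBD replicate 2 11 calls were lost, without MII replicate 1 7 and without MII replicate 2 1, while with TMM scaling, DESeq2 or a replicate block 0 were. *Ctbp2* had 1706 and 339 at MII, and its change was 0.62 without the first of these. Over all tested genes the 121 called higher became 88, 59, 43 and 107 in the same order of libraries left out. *Serf2*, a small protein linked to amyloid formation (chromosome 2, 121449195 to 121458313, plus strand), had 2024 and 1804 at GVBD and 12461 and 9031 at MII (2.49 ± 0.66, adjusted p = 0.00136). Its WT GV libraries held 11079 and 6389. *Dnm1l*, the mitochondrial fission dynamin, had 3234 and 2173 at GVBD, 16987 and 10900 at MII and 15435 and 6976 at GV. *Grm2*, a glutamate receptor, had 2288 and 3001, then 14959 and 9679, and 12798 and 7415 at GV. In these 3 the MII libraries were close to the GV libraries and GVBD alone was low. *Cpne1*, a copine, was low at both earlier stages. Its GV libraries held 71 and 72, its GVBD libraries 38 and 78, and its MII libraries 222 and 427. The annotated spans of 5 of the 12, *Serf2*, *Cpne1* and *Dnm1l* among them, overlap another tested gene. Both MII libraries were above both GVBD libraries in all 12, as the naming rule required and as held for 5.35% of tested genes.

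A low level at GVBD was common to the 121 genes called higher. For 103 of them both GV libraries were above both GVBD libraries, as for 18.3% of all tested genes. Their median log2 change from GV to GVBD was −1.77, against 0.02 for all tested genes. Both changes use the same GVBD libraries, so a low value there enters both.

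**Figure D4:**
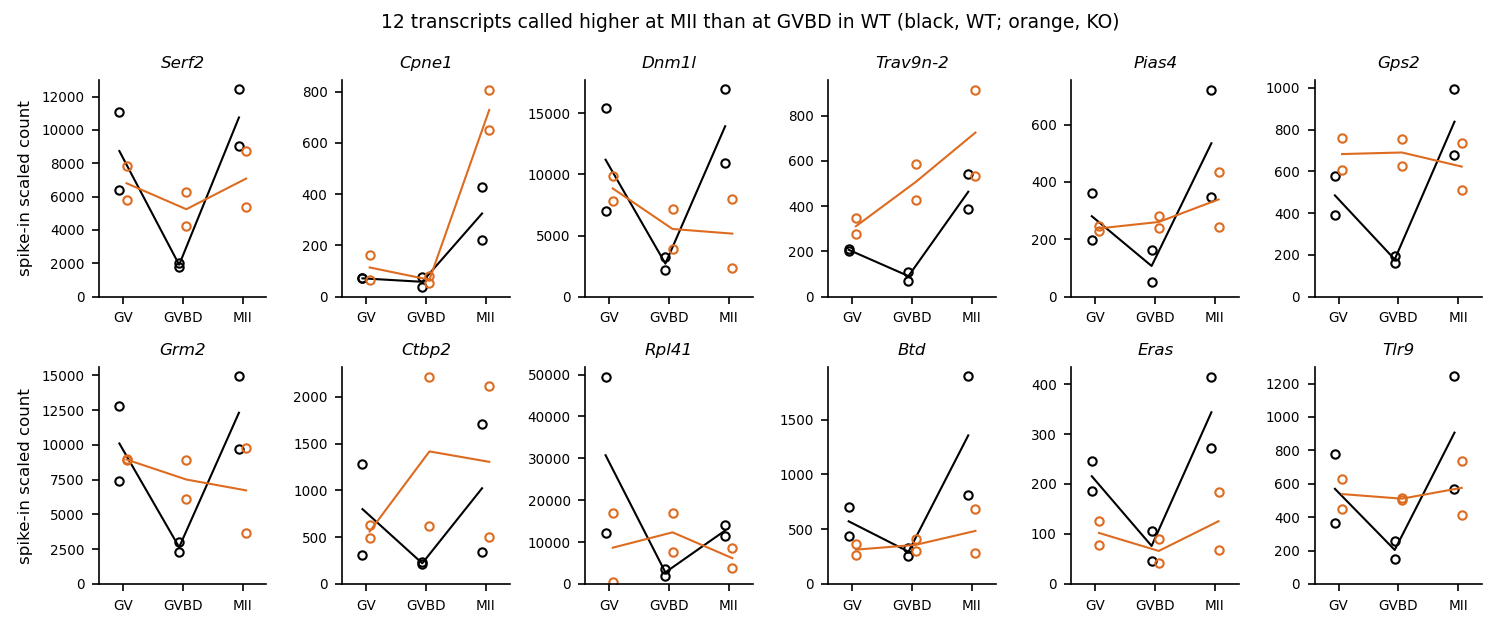
Spike-in scaled counts (vertical axes, from 0) of the 12 named higher transcripts at each stage in WT (black) and KO (orange) oocytes. Circles are libraries, 2 per group, and lines join means. In WT most panels show a low GVBD level between higher GV and MII levels, as for *Serf2* and *Dnm1l*.

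The late change was then set against the early change, from GV to GVBD, with which it shares the GVBD libraries. From GV to GVBD 2 of 19281 tested genes were called lower (0.0104%) and 8 higher (0.0415%), or 0.0519% either way, with a median of 0.01. The difference between the late and the early change, tested as a contrast within WT, was called lower for 1749 of 20468 genes (8.55%) and higher for 88 (0.43%), or 8.97% either way. The contrast was called lower for 38 of 84 cytosolic ribosomal protein genes and 21 of 82 nuclear respiratory genes. It was also called lower for 20 of 77 mitochondrial ribosomal and 15 of 47 proteasome genes. These are genes that passed the test, not all those with a more negative late change. *Rpl26* differed by −5.98 ± 0.70 (adjusted p = 0.000518), *Psmb7* by −5.79 and *Zp2* by −2.71 ± 0.72 (adjusted p = 0.0302). The contrast was opposite for *Ldhb* (3.39 ± 0.71, adjusted p = 0.00947) and *Serf2* (4.68 ± 0.88). Without GVBD replicate 1, 638 genes were called in place of 1837, and without MII replicate 2, 595.

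The size of the change varied with the form of the transcript. Among 8776 coding genes with a mean scaled count of at least 100 and a representative transcript, the median log2 change was −0.74 (0.22 with TMM scaling). In 5 groups of nearly equal size, from the shortest to the longest coding region, the medians were −1.33, −1.07, −0.74, −0.59 and −0.40, and the share called lower was 42.7%, 34.0%, 24.8%, 17.1% and 9.97%. Without ribosomal and respiratory genes the shortest group had a median of −1.21. Genes with TTTTAT in the last 150 bases of the 3′ UTR had a median of −0.36 (n = 1778, 15.0% lower) and those without of −0.85 (n = 6998, 28.5% lower). With TMM scaling these medians were 0.60 and 0.11. The gap was widest for short coding regions, with −0.53 against −1.52 in the shortest of 4 groups and −0.27 against −0.48 in the longest. By GC content of the 3′ UTR, medians went from −0.58 in the lowest of 5 groups to −1.03 in the highest. By length of the 3′ UTR, the shortest of 5 groups had a median of −1.23 (40.2% lower). The longest had −0.64 (17.9% lower). A 3′ UTR under 150 bases was searched over its own length only, and the part of 3′ UTR length in the gap was not tested. In KO oocytes the medians with and without the element were −0.37 and −0.81. These are descriptions across genes, which are not replicates and share their libraries. Long noncoding genes were lower than coding ones, with a median of −1.77 over 1226 lincRNAs and −1.70 over 643 antisense genes, against −1.13 overall.

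**Figure D5:**
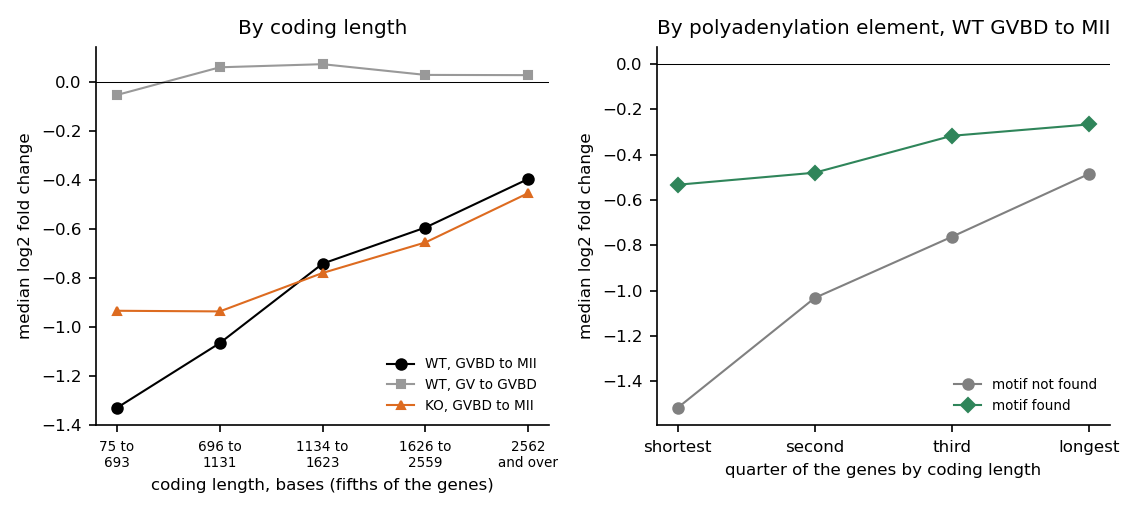
Median log2 fold change (vertical axes) by coding length. Left, 5 groups of the 8776 coding genes in WT from GVBD to MII (black), in WT from GV to GVBD (grey) and in KO from GVBD to MII (orange). Right, 4 groups by coding length with (green) and without (grey) TTTTAT near the 3′ end, from −0.53 against −1.52 in the shortest to −0.27 against −0.48 in the longest.

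Finally, the same interval was set beside KO oocytes. The study took KO oocytes by time in culture, and stage names for KO are those of the labels. It reports that most KO oocytes in culture stayed at GV, and that far fewer KO than WT oocytes extruded a polar body. How far the KO pools match the WT pools in stage is not given, so genotype and stage cannot be told apart here. From GVBD to MII in KO, 958 of 18143 genes were called lower (5.28%) and 11 higher (0.0606%), or 5.34% either way, with a median of −0.88. Of the 5392 genes lower in WT, 4746 were tested in KO. Their median change was −2.98 in WT, by which they were chosen, and −2.02 in KO. Over the 17190 genes tested in both genotypes the KO median was −0.87. In KO, 792 of the 4746 were also called lower, where 5.28% of all tested genes were. At least 2-fold lower in KO were 3827. The share of all genes at that bound was not computed, so this count does not set these genes apart from the rest. A test of the genotype difference in the change called 2 of 20992 genes (0.00953%), *Ctla2a* and *Gm7970*, both more negative in WT. At an unadjusted p under 0.05 it found 1241, and DESeq2 called 125. The number depended on the libraries used, from 1 to 230 when 1 was left out. Ribosomal protein genes had a median of −2.01 in KO, over 82 tested there, against −2.74 in WT. *Alkbh5* itself had 83 and 116 in KO GVBD and 88 and 47 in KO MII.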

How the data were processed

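RNA-seq libraries of mouse oocyte pools were analysed from the gene count table. According to the study's methods the authors primed cDNA on poly(A), pre-amplified it by PCR, trimmed reads with cutadapt (1.9 in the submitters' processing notes), aligned them to mm10 plus ERCC sequences with HISAT2 (2.0.4), kept unique alignments and used StringTie (1.3.4d). The labels describe a bulk protocol instead. The deposited values are raw counts per gene, and the step that made these counts, its annotation release and its use of strand are not given in the sources used here. Intervals cover no error from PCR duplicates, since no molecular identifiers were used.

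Counts of 56691 genes and 92 ERCC sequences were read, and 91.9% of the genes matched a GENCODE M21 symbol. Library sizes were set in proportion to summed ERCC counts. Genes passing filterByExpr were tested with edgeR 4.0.16 (quasi-likelihood, two-sided, R 4.3.3) on the 4 libraries compared, and called at a Benjamini-Hochberg adjusted p under 0.05 and an absolute log2 fold change of at least 1. The late minus early and genotype contrasts used 6 and 8 libraries. Named genes were the 12 highest and 12 lowest called genes at or above the median level, without overlap between groups, with at least 100 counts in both libraries of the higher group and with an informative symbol, the 12 kept genes with the highest MII count per kilobase, and 2 to 4 members of each list. The members and lists were chosen with earlier results of these data known. Alternatives were TMM and median-of-ratios scaling, no filter, DESeq2 1.42.0, a replicate block, other filters and leaving out each library. The test was also tried on simulated counts.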

Additional observations from a re-analysis of the deposited data

Results flagged for a closer look

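The change from GVBD to MII differed between genotypes for *Ctla2a*, with a difference of −9.26 (log2, WT minus KO, adjusted p = 0.017, edgeR). In WT its scaled counts went from 574 and 564 to 8 and 6, and in KO from 17 and 14 to 93 and 145. The summed blood markers were 84867 to 138998 in WT GVBD, 521 to 913 in WT MII, 716 to 718 in KO GVBD and 375 to 30727 in KO MII, and their part in the result was not tested.

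For *Gm7970* the fitted difference was −11.1 (adjusted p = 0.036). Both WT MII libraries held 0 counts, after 311 and 160 scaled counts at WT GVBD, so the fitted value depends on a prior count and is no measure of size. In KO the levels were 290 and 293, then 226 and 328.

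The late change in WT differed from the early change for 1837 genes by a test of the difference itself, of which 1749 were more negative late. Both changes share the GVBD libraries.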

How the results depend on the processing

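The depth allowed a median standard error of 0.76 on the log2 scale, so changes near 2-fold often missed the threshold. The median change from GVBD to MII over tested genes was below 0 under all alternatives tried. TMM and median-of-ratios scaling set the average gene near no change, so they cannot show an overall loss. Among the 8776 coding genes described above the median was −0.74, and 0.22 with TMM scaling. Direction and size of the overall loss thus rested on the spike-in, and its size also on single libraries. Genes called from GVBD to MII numbered 5513, and 1847 to 5298 with 1 library left out, the fewest without GVBD replicate 1. With TMM scaling the split was 3014 lower and 1902 higher, with median-of-ratios scaling 2902 and 2119, and with DESeq2 5314 and 185. With genes whose level in WT GV replicate 1 was at least 10% of the GVBD mean, an alternative chosen after seeing the data, 5038 were called. The MII to GVBD ratio of endogenous counts per ERCC count was 0.501 to 0.799 with 1 library left out. The 1837 genes whose late and early changes differed became 2765 without a filter on low counts, 742 higher and 1466 lower with TMM scaling, and 595 to 2437 with 1 library left out, with 595 without MII replicate 2 and 638 without GVBD replicate 1. The 2 genes whose change differed between genotypes became 29 with TMM scaling, 31 with median-of-ratios scaling, 195 without a filter, 125 with DESeq2 and 1 to 230 with 1 library left out. The cause was not tested. Relative to the median gene under TMM scaling, the log2 change turned positive, to 0.70 for *Bmp15*, 0.86 for *Cnot7*, 0.48 for *Cox7a2*, 0.65 for *Dppa3*, 0.41 for *Npm2*, 0.95 for *Obox1*, 0.62 for *Ooep*, 0.92 for *Psma2*, 0.95 for *Pttg1*, 0.66 for *Wee2* and 0.44 for *mt-Co1*. Directions also turned for some genes with 1 library left out, with ranges of −0.69 to 0.18 for *Bmp15*, −0.15 to 0.47 for *Ccnb1*, −0.38 to 0.18 for *Cnot7*, −0.83 to 0.30 for *Dppa3*, −0.43 to 0.38 for *Nlrp4f*, −0.22 to 0.20 for *Obox1*, −0.18 to 0.44 for *Obox2*, −0.37 to 0.28 for *Psma2*, −0.32 to 0.31 for *Pttg1*, −0.011 to 0.62 for *Rfpl4*, −0.71 to 0.11 for *Wee2*, −0.29 to 3.56 for *mt-Atp6*, −0.13 to 1.14 for *mt-Atp8* and −0.17 to 0.97 for *mt-Cytb*. Of all these genes *mt-Atp6* alone had been called. Other genes that had not passed with spike-in scaling were called higher with TMM scaling. Among them were *Mos* (2.26), *Mad2l1* (2.29), *Cdc20* (2.03), *Aurkc* (1.45) and *Gdf9* (1.52).

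Across genes, samples sharing a replicate number deviated together only weakly (r = 0.17 across 19270 genes, with 2 pairs). This correlation cannot show an offset shared by all genes of a library. In endogenous counts per ERCC count, replicate 1 was above replicate 2 in 6 of the 6 groups. The main test took the numbers as names, and whether they mark pairs was not settled. With a replicate block, 6113 genes were called from GVBD to MII, 2293 for the late minus early contrast and 0 for the genotype difference, and *Nlrp4f* had a log2 change of −0.014. The ratio of endogenous counts per ERCC count averaged 0.638 within replicate numbers.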

Other observations

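Among the genes called higher in WT, 110 were also tested in KO. Their median log2 change from GVBD to MII was −0.08 in KO, with 63 below 0 and 1 called higher. The 121 genes were chosen by their WT values, so a smaller change in other libraries is a description only.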
